A study of Mus musculus with 15 samples.

Results

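Day 12 +Fgf explants stand in time between freshly cut Day 10 tissue and Day 15 +Fgf explants, and the genes described here are those whose Day 12 level lay outside the levels of both. A gene was called a peak where its 3 Day 12 +Fgf values all lay above the 6 values of Day 10 and Day 15 +Fgf, and a dip where they all lay below. Of 23244 gene entries, 13836 had at least 1 CPM in at least 3 of 15 libraries. Among these, 1174 were peaks and 810 were dips, or 1984 genes in all. The peak and dip rule compares the 9 libraries of the +Fgf path. The 6 +Wnt libraries entered only the filter on low values and, in the tests, the shared estimate of the spread. A gene low in all other libraries could pass this filter through its 3 Day 12 +Fgf values alone, which favours peaks.

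The tissue was made by SFEBq, in which dissociated mouse embryonic stem cells clump together in serum-free culture and grow into epithelial vesicles. The stem cell line carried a GFP reporter for rax (Rx::GFP), a gene of the early eye field, and all 15 samples came from this line. Rx::GFP+ tissue was cut out by hand at Day 10 and was either collected or cultured in retinal maturation medium. The +Fgf medium held 5 ng/ml human bFgf together with 10% FBS, the +Wnt medium held the GSK3 inhibitor CHIR99201, with no serum listed, and media were changed at days 11, 12 and 14. The 5 groups were Day 10 Rx::GFP+ tissue and explants of either medium taken at Day 12 or Day 15. Each had 3 biological replicates, and 12556998 to 16175450 reads per library lay in genes. Fgf, serum, excision and culture as an explant cannot be told apart in the Day 12 +Fgf libraries. In bulk tissue, fewer cells of a type and less RNA per cell cannot be told apart either.

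In the developing eye, Fgf signalling directs the optic neuroepithelium towards neural retina, and Wnt signalling directs it towards pigmented epithelium. Fgf receptors act through the MAPK cascade, which raises the transcription of its own inhibitors, such as the Spry and Dusp genes. Serum and mechanical tension act on a different pair of regulators, SRF with its cofactor MRTF and TEAD with its cofactor YAP, which drive genes of the actin cytoskeleton and of the extracellular matrix. Genes of cells that spread, migrate or repair a wound include matrix proteases, integrins, tenascin C and osteopontin.

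The values are counts normalized to library size (CPM). All tests were made with limma 3.58.1 on log2(value + 0.3) over all 15 libraries, with Benjamini-Hochberg adjustment over all 13836 genes and a threshold of 0.05. The step from Day 10 to Day 12 passed for 55.9% of genes (27.9% higher and 27.9% lower at Day 12), and the step from Day 12 to Day 15 for 57.1% (29.9% higher and 27.2% lower at Day 12). A gene is called transiently higher where both steps passed with Day 12 the higher, and transiently lower where both passed with Day 12 the lower. The turn of a gene is the smaller of its 2 steps on the log2 scale.

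Before the results, 2 features of the libraries apply to all of them. Among the 3 Day 12 +Fgf libraries, replicate 3 had the highest value for 132 of the 150 genes that were transiently higher by at least 1, and replicate 1 and replicate 2 had the highest value for 7 and 11. Without replicate 3, both steps still passed for 147 of the 150 genes. In the study's sample table, every Day 12 +Fgf library had a higher RNA integrity number (RIN) than every Day 10 and Day 15 +Fgf library, so RNA integrity and the Day 12 state were ordered alike. With RIN as a covariate, 111 of the 150 genes still passed both steps. The RIN slope within groups was past the threshold for 0 of 13836 genes in limma, with 708 at an unadjusted p under 0.05. That slope rests on RIN differences among 3 libraries per group, so it cannot decide what RIN did between the groups.

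Against the mean of Day 10 and Day 15 +Fgf, 2735 genes were higher (19.8%) and 2614 lower (18.9%) in Day 12 +Fgf, a contrast that also holds genes with 1 large step. The peaks were 8.49% and the dips 5.85% of the genes tested. Both steps passed for 982 genes with Day 12 the higher (7.1%), of which 918 were peaks, and for 659 with Day 12 the lower (4.76%), of which 578 were dips. Most turns were small, with a median of 0.39 among the transiently higher genes, and 150 had a turn of at least 1 (2-fold), of which 35 had a turn of at least 2. The corresponding numbers of transiently lower genes were 81 and 7. The no-overlap rule was also met by 148 of these 150 and by 74 of these 81 genes. At the edge of the rule, the lowest Day 12 value of Fech lay 0.0085 CPM above the highest of the other 6 values, and that of Tmed9 lay 0.0016 CPM below it. Among dips, the highest Day 12 value of Rpl15 lay within the rule by 0.066 CPM, and that of Tnrc18 missed it by 0.055 CPM. With RIN as a covariate, 483 genes were transiently higher and 282 transiently lower, with 438 and 242 of the genes above among them.

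**Figure D1:**
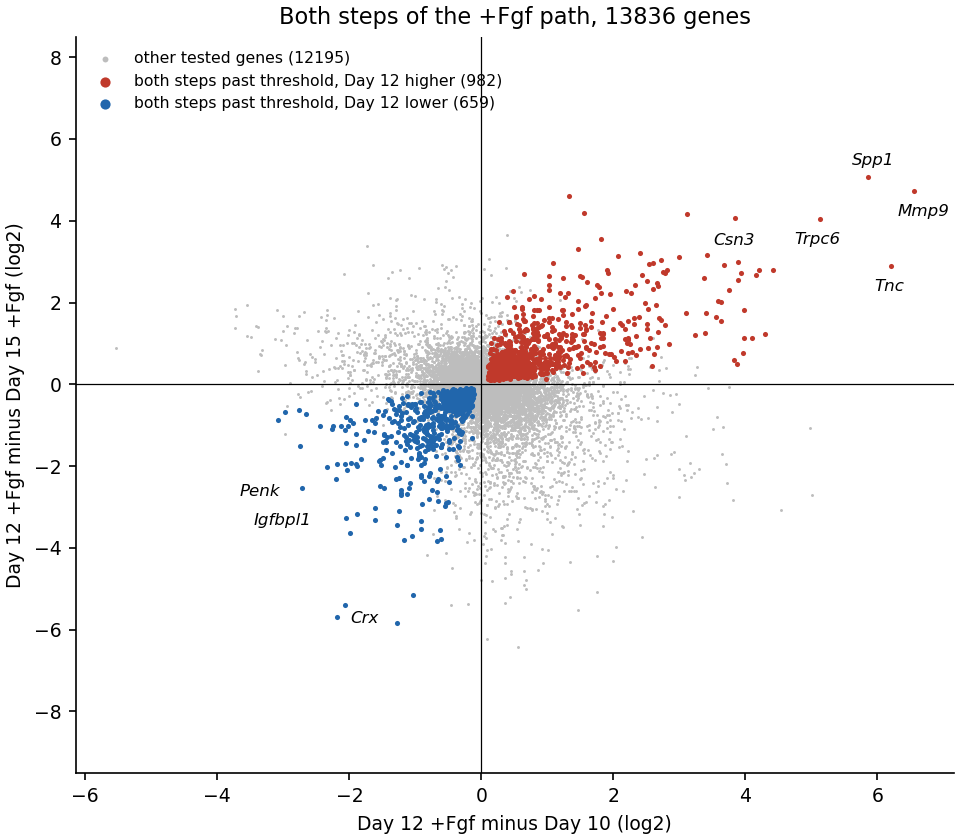
Each point is 1 of 13836 genes, with the log2 difference of Day 12 +Fgf from Day 10 on the horizontal axis and from Day 15 +Fgf on the vertical axis. The 982 genes in red were higher and the 659 genes in blue lower at Day 12 with both steps past the threshold (limma), and Spp1, Mmp9, Trpc6 and Csn3 lie farthest from both zero lines among the named peaks.

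The summed value of the 150 genes transiently higher by at least 1 lay between 2195 and 2216 CPM at Day 10, between 6584 and 9589 CPM in Day 12 +Fgf and between 2185 and 2389 CPM in Day 15 +Fgf. At Day 15 these genes ended on either side of their Day 10 level. Of the 150, 51 were above Day 10 and 29 below, and 70 did not pass the test (limma). Over all genes tested, Day 15 differed from Day 10 for 72.7% and was above it for 36.2% and below for 36.5%. Of the 81 genes transiently lower by at least 1, 30 were above Day 10 at Day 15, 9 were below, and 42 did not pass.

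Spp1 encodes osteopontin, a secreted matrix protein that binds integrins and CD44. Its values were 6.13, 10.2 and 8.02 CPM at Day 10, 434, 293 and 869.9 CPM in Day 12 +Fgf and 12.6, 11.5 and 18.9 CPM in Day 15 +Fgf. The 3 Day 12 libraries were far above the other 6 and differed among themselves, with replicate 3 the highest. The mean at Day 12 was 65.7-fold that of Day 10 and 37.1-fold that of Day 15 +Fgf, and the turn of 5.07 was the largest among the named peaks. Spp1 lies on chromosome 5 from 104435118 to 104441050 on the plus strand (GRCm38, as are all positions here).

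Mmp9 encodes the gelatinase MMP9, which cleaves basement membrane collagen. It had 0.204, 0.334 and 0.382 CPM at Day 10, 69.0, 41.4 and 62.2 CPM in Day 12 +Fgf and 2.43, 0.824 and 2.90 CPM in Day 15 +Fgf. Day 12 and the other time points did not overlap, and the Day 15 libraries remained above those of Day 10. Trpc6, which encodes a calcium-permeable channel, had 1.09, 0.668 and 1.15 CPM, then 43.4, 34.7 and 54.0 CPM, then 2.43, 2.68 and 1.98 CPM. Tnc, the gene of tenascin C, had 2.52, 1.14 and 2.06 CPM, then 147, 121 and 212 CPM, then 15.6, 17.0 and 34.0 CPM. For both genes all Day 12 values were above all others, and Tnc kept part of its rise at Day 15, with a log2 difference from Day 10 of 3.31 (SE 0.32). Exons of Tnc overlap 8030451A03Rik on the opposite strand, as those of Runx1, Tagln, Penk and Kcnn1 overlap Gm26626, Pcsk7, A830012C17Rik and A230052G05Rik. The strand setting of the counting is not given in the sources used here, so reads of such pairs cannot be told apart.

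Csn3 is the gene of the milk protein kappa-casein. It had 6.81, 4.88 and 7.41 CPM at Day 10, 87.8, 77.2 and 121 CPM in Day 12 +Fgf and 6.49, 3.98 and 5.72 CPM in Day 15 +Fgf. The Day 10 and Day 15 values overlapped, and their log2 difference of -0.23 (SE 0.24) did not pass the test (limma, Benjamini-Hochberg adjusted p = 0.389). Its neighbour Odam, an enamel protein gene, was at 2.28, 1.53 and 3.39 CPM in Day 12 +Fgf and at 1 read in each of the 6 other libraries of the path.

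Other named peaks held signalling and regulatory genes. Tgfb1, a ligand of the TGF-beta family, had means of 0.747, 13.9 and 1.48 CPM along the 3 time points. Runx1, a transcription factor gene, had 1.34, 14.8 and 0.522 CPM, and was below Day 10 at Day 15 (log2 difference -1.04 (SE 0.37)). Angpt2, a ligand of the endothelial receptor TEK, had 1.21, 32.4 and 4.26 CPM, and Cdkn2b, an inhibitor of CDK4 and CDK6, had 0.355, 12.5 and 1.45 CPM. Ecm1, a secreted matrix protein gene, had 2.05, 18.8 and 1.87 CPM and Tagln, the actin-binding transgelin gene, had 21.2, 316 and 38.8 CPM. Replicate 3 was the highest of the Day 12 libraries in 11 of the 12 named peaks.

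**Figure D2:**
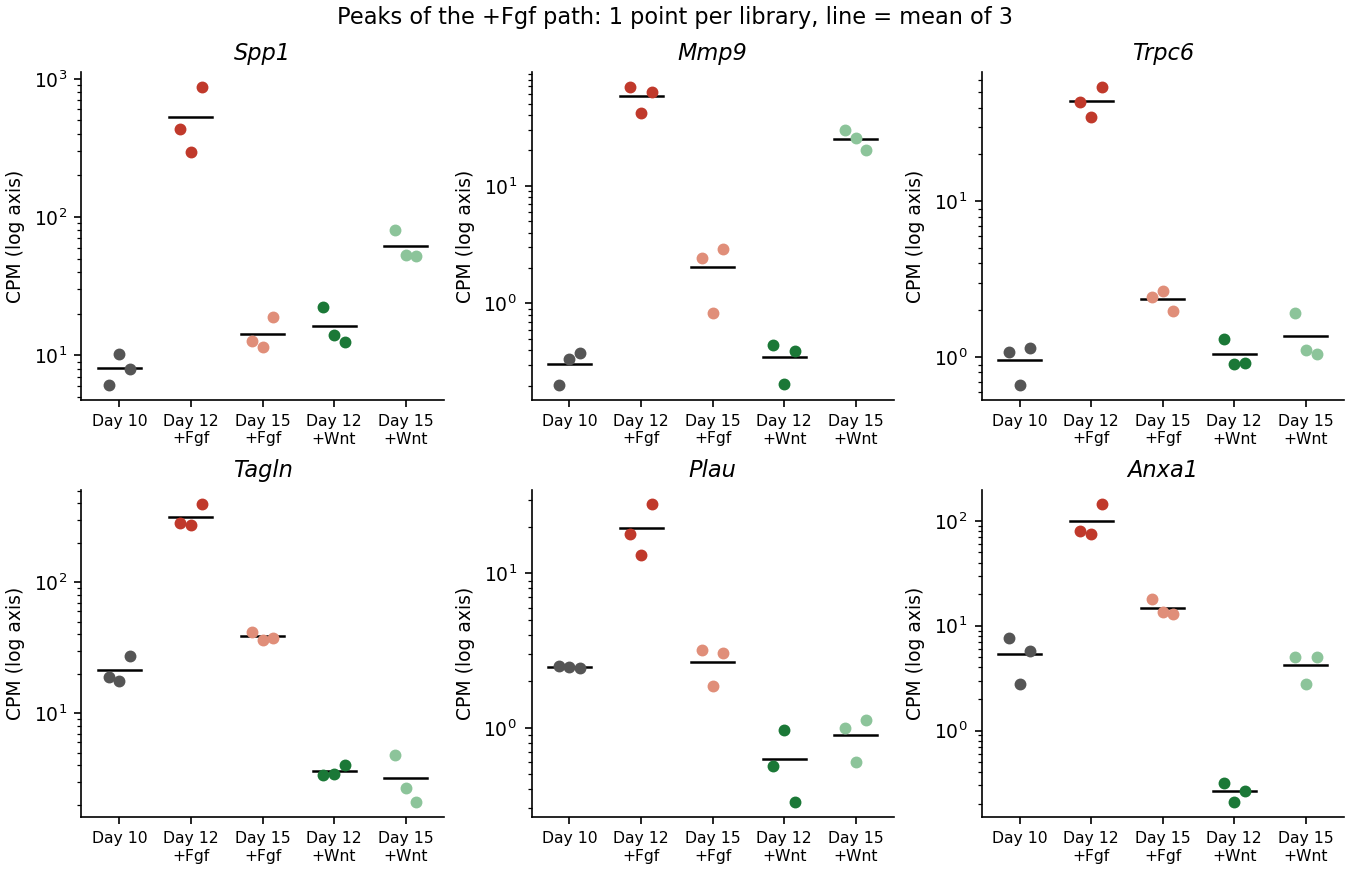
Values in CPM on a log axis for 6 peaks in all 15 libraries, 1 point per library, with a line at the mean of 3. In each panel the 3 Day 12 +Fgf points lie above the 6 points of Day 10 and Day 15 +Fgf, and for Mmp9 the Day 15 +Wnt points, at a mean of 25.1 CPM, come closest to them.

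Windows of 250 bases before the start of transcription are shown for the named peaks of largest turn that the reference table held, and for Crx, the strongest dip among the gene lists, so that a reader can see the sequences these values belong to. They are from RefSeq (GRCm38.p6), written 5′ to 3′ on the strand of the gene, and capitals mark matches to an AP-1 site (TGANTCA), a CArG box, a TEAD site (GGAATG) or an OTX/CRX site (TAATCC) on either strand. The windows lie at chr5:104434861-104435110 (plus strand), chr9:8543892-8544141 (plus), chr16:92826075-92826324 (minus), chr3:95739570-95739819 (minus) and chr7:15879956-15880205 (minus).
Spp1: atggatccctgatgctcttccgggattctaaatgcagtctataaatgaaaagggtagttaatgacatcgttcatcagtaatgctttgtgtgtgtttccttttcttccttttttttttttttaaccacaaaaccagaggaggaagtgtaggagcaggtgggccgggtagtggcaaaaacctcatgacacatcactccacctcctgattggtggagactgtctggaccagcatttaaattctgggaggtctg
Trpc6: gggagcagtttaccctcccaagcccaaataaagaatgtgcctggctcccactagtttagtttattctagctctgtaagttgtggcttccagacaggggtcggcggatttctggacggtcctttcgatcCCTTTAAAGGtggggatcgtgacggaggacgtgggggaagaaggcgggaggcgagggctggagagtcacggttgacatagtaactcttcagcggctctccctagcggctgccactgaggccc
Runx1: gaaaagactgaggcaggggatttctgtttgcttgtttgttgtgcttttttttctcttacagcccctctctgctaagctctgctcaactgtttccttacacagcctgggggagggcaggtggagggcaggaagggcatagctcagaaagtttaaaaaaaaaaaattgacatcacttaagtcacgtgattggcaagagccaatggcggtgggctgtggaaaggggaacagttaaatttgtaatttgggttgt
Ecm1: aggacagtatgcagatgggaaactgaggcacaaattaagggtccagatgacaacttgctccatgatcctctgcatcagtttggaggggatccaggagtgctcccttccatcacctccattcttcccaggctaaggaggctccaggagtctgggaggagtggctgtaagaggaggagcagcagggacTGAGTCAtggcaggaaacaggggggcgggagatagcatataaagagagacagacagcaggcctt
Crx: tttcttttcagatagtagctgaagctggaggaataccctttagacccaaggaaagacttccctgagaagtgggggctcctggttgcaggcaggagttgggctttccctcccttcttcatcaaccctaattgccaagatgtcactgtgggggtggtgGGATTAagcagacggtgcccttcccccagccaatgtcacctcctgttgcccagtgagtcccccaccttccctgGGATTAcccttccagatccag

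The Trpc6 window held a CArG box, the site that SRF binds, starting at -122, and the Ecm1 window held an AP-1 site starting at -64. Crx held 2 OTX/CRX sites, at -94 and -21, and the windows of Spp1 and Runx1 held none of the 4 motifs. The matches shown do not overlap one another. Over windows of 300 bases (250 before the start to 50 after it), an AP-1 site was found in 12 of the 100 promoters held for the 150 genes transiently higher by at least 1 (12%), in 4.47% of the promoters of genes tested and in 7.93% of all promoters. A CArG box was found in 5 of the 100, in 1.30% of those of genes tested and in 1.57% of all. For TEAD sites the shares were 13%, 12.0% and 14.6%, and for OTX/CRX sites 13%, 5.44% and 7.16%. Of the 59 promoters held for the 81 genes transiently lower by at least 1, 2 held an AP-1 site, 0 a CArG box, 7 a TEAD site and 4 an OTX/CRX site. A match is a description of the letters in a window and does not show that a factor bound there.

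Genes of the contractile cytoskeleton had the largest share of peaks among the gene lists. Of 19 targets of SRF and YAP tested, 17 were transiently higher and 0 transiently lower, against 7.1% and 4.76% of all genes. The median difference of the list from the mean of Day 10 and Day 15 was 1.06 on the log2 scale, and the median over all genes was -0.0018. The largest turn after Tagln was that of Cnn1, the smooth muscle calponin gene, with 0.545, 0.802 and 1.53 CPM, then 3.93, 4.59 and 4.03 CPM, then 0.369, 0.206 and 0.495 CPM. Acta2, the smooth muscle actin gene, had 15.1, 11.9 and 17.6 CPM at Day 10, 157, 156 and 218 CPM in Day 12 +Fgf and 54.0, 53.6 and 61.0 CPM in Day 15 +Fgf. The groups of Acta2 did not overlap, and Day 15 stayed above Day 10. The abundant members rose by less, as Tpm1, a tropomyosin gene, had 320.0, 575 and 163 CPM, and Vcl, the gene of the focal adhesion protein vinculin, had 202, 269 and 92.8 CPM. The secreted YAP targets Cyr61 and Ctgf had 53.2, 74.9 and 15.2 CPM and 35.5, 63.2 and 22.1 CPM, lower at Day 15 than at Day 10. The 2 members that did not turn were Lima1 (52.4, 54.5 and 35.6 CPM) and Amotl2 (146, 107 and 110.3 CPM), and Ankrd1 was under the filter. Both steps passed for 16 of the 19 with RIN as a covariate and for 15 without Day 12 replicate 3.

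Matrix proteins and their receptors peaked with them. Of 20 tested, 14 were transiently higher and 0 transiently lower, against 7.1% and 4.76% of all genes, with a median difference of 0.85. After Spp1, the largest turns were those of Tnc and Itgb3, an integrin subunit that binds osteopontin and fibronectin, with 0.681, 1.00 and 0.764 CPM, then 6.21, 4.91 and 11.3 CPM, then 0.811, 0.137 and 1.13 CPM. Fbln2, the fibulin 2 gene, had 1.96, 30.6 and 5.91 CPM, and Fn1, the fibronectin gene, had 136, 606 and 220.3 CPM. The other receptors among them were Itga3, Itga5, Itgav, Itgb1 and Cd44, with Itgb1 the most abundant at 362, 586 and 439 CPM and Cd44 at 7.21, 17.4 and 7.21 CPM. With RIN as a covariate, 12 of the 20 passed both steps.

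Of 20 matrix proteases, plasminogen activators and inhibitors tested, 10 were transiently higher and 1 transiently lower, against 7.1% and 4.76% of all genes. Plau, the gene of the urokinase plasminogen activator, had 2.52, 2.47 and 2.44 CPM at Day 10, 17.9, 13.2 and 28.1 CPM in Day 12 +Fgf and 3.17, 1.85 and 3.04 CPM in Day 15 +Fgf, and the groups of Day 10 and Day 15 overlapped. Its receptor gene Plaur had 0.607, 3.23 and 0.215 CPM, the second activator gene Plat had 25.1, 116 and 44.7 CPM, and Timp1, a metalloproteinase inhibitor gene, had 3.34, 8.51 and 1.68 CPM. These 4 genes were all highest at Day 12. The stromelysin genes Mmp3 and Mmp10, which are neighbours on chromosome 9, were low, with 3.74, 1.66 and 1.85 CPM and 2.73, 2.23 and 5.11 CPM in Day 12 +Fgf. Mmp3 was at 0 in the 3 Day 10 and all 6 +Wnt libraries. For both genes the Day 12 +Fgf values alone were enough to pass the filter on low values. With a filter of 10 CPM in 3 libraries, 5 members of the list were transiently higher. Mmp15, a membrane-bound metalloproteinase gene, was the member that dipped, at 44.5, 32.2 and 37.5 CPM. When RIN entered as a covariate, 7 members were transiently higher and 0 lower, and the calls of Mmp3, Timp2 and Mmp15 were lost. That of Mmp15 was also lost without Day 12 replicate 3 or Day 15 replicate 1. That of Timp2 was also lost without Day 12 replicate 2 or 3 or Day 15 replicate 1 or 2. Median-of-ratios scaling, quantile normalization and moderation without a trend each ended it too.

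The annexins, calcium-dependent membrane proteins, and their S100 partners had 8 of 15 members transiently higher, against 7.1% of all genes. Anxa1 had 7.63, 2.81 and 5.73 CPM, then 79.3, 74.7 and 144 CPM, then 17.9, 13.4 and 12.9 CPM. The S100 genes S100a4, S100a6, S100a10 and S100a11 were also higher, with S100a6 at 15.2, 51.8 and 9.15 CPM. S100a1 moved the other way, with 19.9, 4.67 and 9.77 CPM, and its call was lost with RIN as a covariate, as was that of S100a4.

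A sum of mesenchyme markers was highest in Day 12 +Fgf and low beside these groups, but most of its members were not transiently higher. The summed value of 11 mesenchyme and neural crest markers was between 79.6 and 108 CPM at Day 10, between 166 and 295 CPM in Day 12 +Fgf and between 129 and 166 CPM in Day 15 +Fgf. Of the 10 tested, the 2 collagen genes Col1a1 (2.31, 23.9 and 10.1 CPM) and Col3a1 (28.1, 62.2 and 12.4 CPM) were transiently higher, against 7.1% of all genes. Pdgfra (4.74, 4.82 and 10.4 CPM), Twist1 (10.7, 8.11 and 6.63 CPM) and Dcn (2.38, 2.101 and 2.28 CPM) were not, and Sox10 was under the filter. The call of Col3a1 was lost without Day 10 replicate 2 or 3, or Day 12 replicate 1 or 2. The part of mesenchymal cells in the matrix genes was not tested. Under the RIN covariate, 0 of the 10 passed both steps. Of 8 macrophage and leukocyte markers, C1qb was at 0 in all 15 libraries, Ptprc, Aif1, C1qa, Tyrobp and Lyz2 were under the filter, and the sum lay between 1.34 and 1.72 CPM in Day 12 +Fgf and between 2.32 and 3.61 CPM at Day 10. The endothelial genes Cdh5, Emcn and Tie1 were under the filter, and 0 of 4 endothelial, 0 of 7 pluripotent cell and 0 of 6 forebrain markers tested were transiently higher or lower. The endothelial sum lay between 37.1 and 61.3 CPM at Day 10 and between 100 and 171 CPM in Day 12 +Fgf. It lay between 218 and 269 CPM in Day 15 +Fgf. Of the 4 endothelial markers tested, 1 was above and 1 below Day 10 at Day 12. Of 3 lens markers tested, Mip was transiently lower, at 2.01, 0.827 and 1.79 CPM, a call lost with RIN as a covariate.

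Feedback targets of Fgf and MAPK were higher at Day 12 than at Day 10, and a part of them came down again by Day 15. Of 15 tested, 14 were above Day 10 at Day 12 and 0 below, where 27.9% of all genes were above. Of these 15, 8 were transiently higher, against 7.1% of all genes, and the median difference was 0.80. Il17rd, the gene of the receptor antagonist SEF, had the largest turn, with 50.3, 129 and 63.1 CPM. Dusp6, the gene of an ERK phosphatase, had 55.2, 56.3 and 55.9 CPM, then 151, 148 and 165 CPM, then 95.7, 91.3 and 94.1 CPM, and its 3 groups did not overlap. Spry2 had 26.0, 61.9 and 40.7 CPM. Other targets were held at Day 15: the Fgf feedback inhibitor gene Spry4 had 2.46, 16.4 and 17.9 CPM and the ETS factor gene Etv5 had 51.8, 132 and 146 CPM, and the step from Day 12 to Day 15 did not pass for either (limma, Benjamini-Hochberg adjusted p = 0.428 and 0.322). Etv4 took both courses, from 7.15, 8.69 and 8.02 CPM to 49.1, 48.5 and 49.2 CPM and 36.0, 32.3 and 39.1 CPM. In the fit with RIN, 3 of the 15 were transiently higher, and the calls of Dusp6 and Etv4 were lost. The call of Etv4 was also lost without Day 15 replicate 2.

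Immediate early genes, which respond rapidly to growth factors without new protein synthesis, were less uniform. Of 25 tested, 7 were transiently higher and 0 lower, against 7.1% and 4.76% of all genes. Fosl2 had the largest turn, at 10.6, 23.1 and 10.7 CPM, and Junb had 8.401, 17.5 and 5.85 CPM, both members of the AP-1 family. Egr1, a zinc finger factor gene downstream of ERK, had 23.6, 17.1 and 18.7 CPM, then 26.2, 29.9 and 28.8 CPM, then 8.63, 8.31 and 9.68 CPM. Fos was at 10.3, 9.91 and 4.03 CPM and its step from Day 10 to Day 12 did not pass the test (limma adjusted p = 0.96). Fosl1 was under the filter. With RIN in the fit, 3 of the 25 were transiently higher, and the calls of Fosl2 and Egr1 were lost.

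The next 3 lists are set against 7.1% of all genes transiently higher. Of 12 genes of the cytokine and injury response tested, Hbegf and Ptgs2 were transiently higher. Of the 21 listed genes, 9 were under the filter, Lcn2 at 0 in all libraries. Hbegf, a ligand of the EGF receptor, had 9.68, 17.2 and 11.2 CPM, then 38.2, 35.0 and 59.2 CPM, then 8.996, 7.97 and 7.14 CPM. Ptgs2, the inducible cyclooxygenase gene, had 0.409, 0.468 and 0.611 CPM, then 11.8, 9.11 and 15.1 CPM, then 1.33, 1.51 and 1.77 CPM. Neither gene had overlapping groups. In the BMP and TGF-beta pathway, 5 of 15 were transiently higher, led by Tgfb1 and including the activin subunit gene Inhba (0.559, 5.08 and 1.04 CPM), the activin antagonist gene Fst (7.43, 30.4 and 11.6 CPM) and the inhibitor gene Smad7 (9.29, 16.1 and 12.0 CPM). The calls of Inhba, Fst and Smad7 were lost with RIN as a covariate, and that of Smad7 without Day 12 replicate 3 or Day 15 replicate 2. Among keratins and genes of epithelial-mesenchymal transition, 3 of 15 were transiently higher, namely Krt8 (16.2, 35.3 and 5.25 CPM), Vim (1095, 1663 and 943 CPM) and Nes (218, 439.7 and 229 CPM), and the calls of Krt8 and Nes were lost with RIN as a covariate. That of Krt8 was also lost without any 1 of the Day 10 libraries or without Day 12 replicate 3.

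Mitosis genes were slightly higher at Day 12, and so were a part of the cell cycle inhibitors. Of 23 mitosis genes tested, 13 were transiently higher, and 23 of 23 passed as higher than the mean of Day 10 and Day 15, where 19.8% of all genes did. The median difference was 0.36, and the largest turn was that of Plk1, the gene of polo-like kinase, with 99.2, 103 and 109 CPM, then 156, 149 and 135 CPM, then 104, 108 and 108 CPM. Cdk1, the mitotic kinase gene, had 202, 313 and 262 CPM. The calls of both were lost with RIN as a covariate. After adding RIN to the fit, 2 of the 23 were transiently higher. Of 23 DNA replication genes, 4 were transiently higher, against 7.1% of all genes. They were led by the helicase subunit gene Gins2 (48.2, 63.4 and 45.2 CPM). The ribonucleotide reductase genes Rrm1 (429, 551 and 391 CPM) and Rrm2 (307, 363 and 217 CPM) were among them, the latter lost with RIN. The list did not peak as a whole: at Day 12, 11 of the 23 were below Day 10 and 5 above. From Day 12 to Day 15, 22 fell, where 29.9% of all genes did. Their summed value lay between 4643 and 5020 CPM, then 4219 and 4555 CPM, then 3071 and 3151 CPM. Of 10 CDK inhibitors and D-type cyclins, 5 were transiently higher, against the same 7.1%. Cdkn2b had 0.273, 0.334 and 0.459 CPM, then 11.3, 7.52 and 18.7 CPM, then 1.55, 1.10 and 1.70 CPM, with no overlap. Cdkn1c, the gene of the inhibitor p57, had 95.9, 98.1 and 92.8 CPM, then 153, 144 and 207 CPM, then 54.2, 34.1 and 56.3 CPM, and ended below Day 10. Cdkn2a, which encodes p16 and p19, was at 0.920, 3.33 and 1.66 CPM, and its call was lost without any 1 of the Day 12 libraries, without Day 15 replicate 2 or 3, with RIN as a covariate and with a pseudocount of 0.05.

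**Figure D3:**
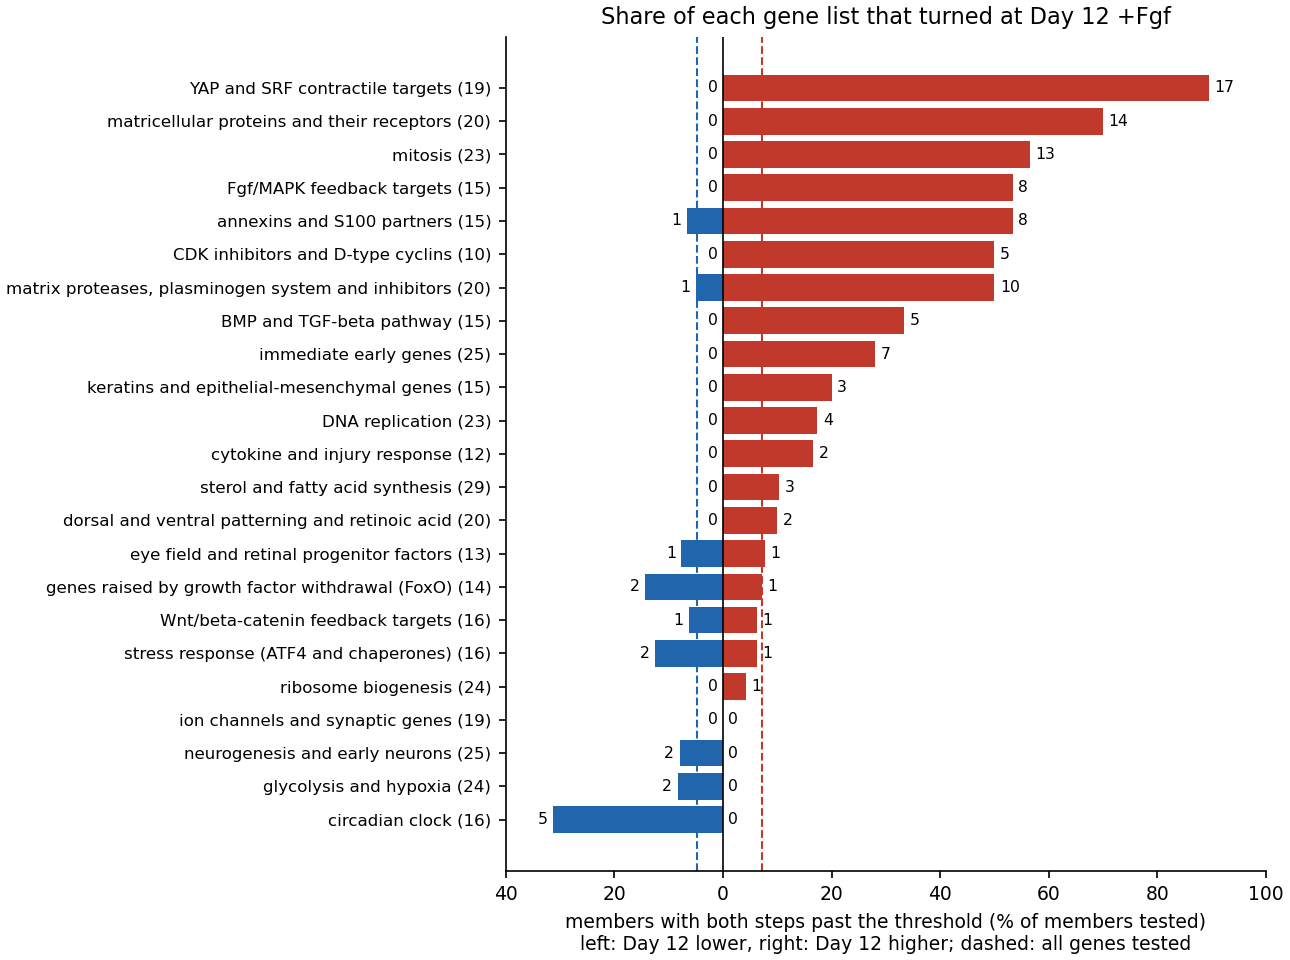
Bars give the percentage of each list's tested members (number in brackets) for which both steps passed the threshold (limma), to the right where Day 12 +Fgf was higher and to the left where it was lower, with the number of genes at the end. Dashed lines mark 7.1% and 4.76%, the shares over all 13836 genes. The targets of SRF and YAP, with 17 of 19, have the longest bar to the right, and the clock genes reach to the left with 5 of 16.

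The label of the group was checked against its markers, and the eye field genes Rax (164, 222 and 311 CPM), Pax6 (558, 614 and 595 CPM) and Lhx2 (477, 303 and 276 CPM) were expressed at all 3 time points. Of 13 eye field and progenitor genes tested, 1 was transiently higher and 1 lower, beside 7.1% and 4.76% of all genes. Hes1, a Notch target, had 90.8, 150.4 and 105 CPM, and Otx2, a factor of pigmented and photoreceptor cells, had 188, 218 and 177 CPM, then 93.7, 100.7 and 74.0 CPM, then 109, 107 and 111 CPM. Both calls were lost with RIN as a covariate, and that of Otx2 also without Day 12 replicate 3. Among 20 genes of patterning and retinoic acid, Cyp26a1, which degrades retinoic acid, had 5.45, 3.74 and 5.73 CPM, then 65.7, 85.4 and 95.6 CPM, then 43.4, 45.2 and 26.1 CPM. The call of Cyp26a1 was lost with RIN as a covariate, with a pseudocount of 0.05, and without Day 12 replicate 2, Day 12 replicate 3 or Day 15 replicate 3. Of 16 Wnt feedback genes, 1 was transiently higher and 1 lower, near the shares of all genes (7.1% and 4.76%). These were Sfrp2, a secreted Wnt antagonist gene (675, 1690.0 and 934 CPM), and Irx3 (8.49, 3.65 and 9.28 CPM). At Day 12, 9 of the 16 were below Day 10 and 2 above.

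Early neuronal genes were mostly on the rise at Day 12. Of 25 tested, 16 were above Day 10 at Day 12 and 24 were higher at Day 15 than at Day 12, and 16 passed as lower than the mean of the outer time points. The shares over all genes were 27.9%, 27.2% and 18.9%. Atoh7, the proneural factor gene of ganglion cells, had 0.2997, 11.9 and 102 CPM. Only Sox4 (120.4, 109 and 272 CPM) and Crx were transiently lower among the 25, against 4.76% of all genes. Crx, the photoreceptor homeobox gene, is a minus-strand gene of chromosome 7 (15865947 to 15879968). It had 9.403, 6.75 and 10.3 CPM at Day 10, 1.14, 2.99 and 1.34 CPM in Day 12 +Fgf and 116, 97.7 and 93.8 CPM in Day 15 +Fgf. The 3 groups did not overlap, and the value at Day 12 was lower than at Day 10 before a rise of 56.2-fold by Day 15. In +Wnt, Crx was at 2.88 CPM at Day 12 and 2.53 CPM at Day 15. The call of Sox4 was lost with RIN as a covariate.

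Of 11 pigment epithelium markers tested, Tyr, Tyrp1 and Rlbp1 were transiently lower and 0 higher, against 4.76% and 7.1% of all genes. At Day 12, 8 of the 11 were below Day 10, where 27.9% of all genes were. From Day 12 to Day 15, 5 of the 11 rose and 3 fell further or fell anew. Tyr, the gene of tyrosinase, had 71.5, 48.6 and 40.6 CPM, then 13.2, 20.3 and 19.5 CPM, then 23.3, 28.7 and 30.5 CPM. The summed value of the 13 markers fell from between 966 and 1336 CPM at Day 10 to between 294 and 345 CPM in Day 12 +Fgf, and lay between 269 and 461 CPM in Day 15 +Fgf. The part of pigmented cells in the dips was not tested. The calls of Tyr and Rlbp1 were lost with RIN as a covariate.

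The named dips held neuronal and signalling genes. Penk, the proenkephalin gene, had 23.9, 17.8 and 16.5 CPM at Day 10, 2.54, 3.76 and 1.92 CPM in Day 12 +Fgf and 15.2, 18.1 and 16.8 CPM in Day 15 +Fgf. Day 10 and Day 15 overlapped and Day 12 was below both, with a turn of -2.53. Igfbpl1, a gene of an insulin-like growth factor binding protein, had 62.5, 50.9 and 67.8 CPM, then 15.8, 24.4 and 7.35 CPM, then 141, 135 and 145 CPM, and ended above its Day 10 level. Nmnat2, which encodes a NAD-synthesizing enzyme of axons, had 12.6, 8.62 and 11.1 CPM, then 2.79, 3.06 and 1.53 CPM, then 9.96, 11.6 and 11.6 CPM. Peli2, a gene of an E3 ubiquitin ligase, had 38.7, 42.7 and 39.3 CPM, then 15.1, 13.8 and 14.6 CPM, then 38.3, 37.6 and 38.5 CPM. Within each of the 3 groups the values of Peli2 lay close together, and the difference of Day 15 from Day 10 did not pass the test (log2 difference -0.08 (SE 0.07), limma adjusted p = 0.361). Others were the phospholipase gene Pla2g5 (18.3, 4.67 and 11.3 CPM), Parvb, a partner of integrin-linked kinase (29.9, 13.1 and 31.5 CPM), Fam212b (30.6, 9.02 and 20.3 CPM) and the potassium channel gene Kcnn1 (14.0, 6.24 and 16.5 CPM). The list ends with the protease inhibitor gene A2m (31.6, 14.6 and 57.4 CPM), the sodium-calcium exchanger gene Slc8a3 (22.2, 10.2 and 26.4 CPM) and Rtn4rl1, a homologue of the Nogo receptor (26.7, 11.8 and 25.1 CPM). Replicate 3 was the lowest of the Day 12 libraries in 10 of the 12.

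**Figure D4:**
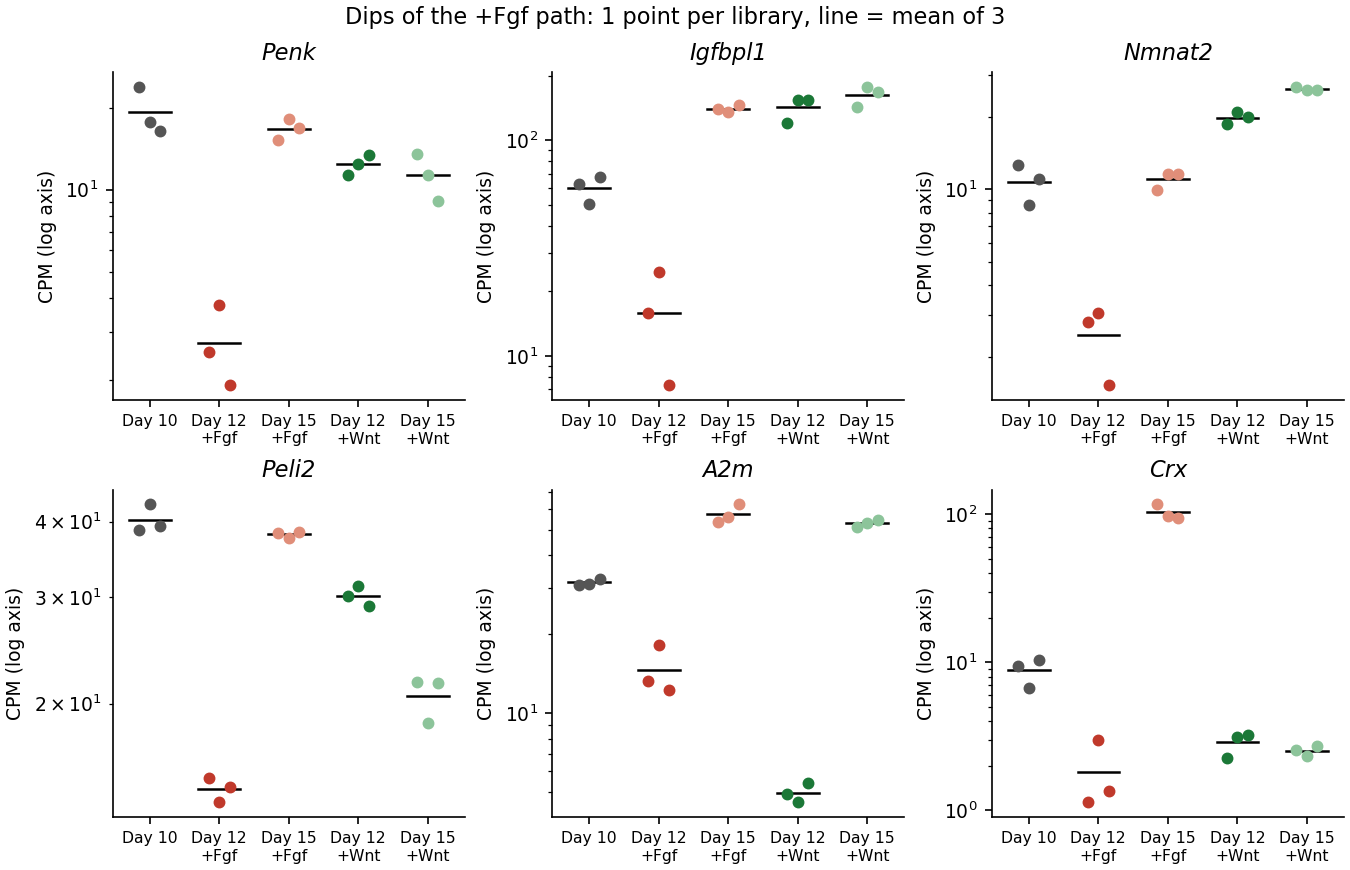
Values in CPM on a log axis for 6 dips in all 15 libraries, 1 point per library, with a line at the mean of 3. The 3 Day 12 +Fgf points lie below the 6 points of Day 10 and Day 15 +Fgf in each panel, and Crx is the gene with the widest distance, from 1.83 CPM at Day 12 to 103 CPM at Day 15.

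The circadian clock was a list with dips and no peaks. Of 16 clock genes tested, 5 were transiently lower and 0 higher, where 4.76% of all genes were transiently lower. These were the repressors Cry1 (58.1, 43.0 and 52.7 CPM) and Cry2 (28.4, 19.9 and 24.7 CPM), Clock (41.9, 36.0 and 47.3 CPM), the output factor gene Tef (35.1, 28.8 and 52.4 CPM) and Bhlhe41. Bhlhe41, a repressor of the clock, had the largest turn, with 24.2, 23.2 and 20.5 CPM, then 9.25, 9.37 and 10.0 CPM, then 17.0, 15.9 and 17.0 CPM, and its groups did not overlap. On adding RIN, 3 of the 5 calls remained, and those of Cry1 and Clock were lost. Leaving out 1 library ended the call of Cry2 (Day 12 replicate 3), of Cry1 (Day 12 replicate 2 or 3, Day 15 replicate 1 or 2) and of Clock (Day 10 replicate 2 or 3, Day 12 replicate 2). The groups were collected on different days, and the hour of collection is not given in the sources used here.

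Metabolic lists had few transient calls, where 7.1% of all genes were transiently higher and 4.76% transiently lower. Over all genes, 27.9% were higher and 27.9% lower at Day 12 than at Day 10. From Day 12 to Day 15, 27.2% of all genes rose and 29.9% fell. Of 24 glycolysis and hypoxia genes, Gapdh (3253, 2586 and 3056 CPM) and Pdk1 (133, 106 and 226 CPM) were transiently lower and 0 higher, while 24 of 24 were higher at Day 15 than at Day 12. The call of Pdk1 was lost without any 1 of the Day 10 libraries, without Day 12 replicate 1 or 3, without Day 15 replicate 2, and in edgeR. Of 24 ribosome biogenesis genes, 21 were below Day 10 at Day 12 and 24 were lower at Day 15 than at Day 12, and their summed value lay between 8945 and 9762 CPM, then 6670 and 7555 CPM, then 4356 and 4710 CPM. Odc1, the rate-limiting enzyme of polyamine synthesis, was the 1 transiently higher member, at 505, 634 and 447 CPM, where 7.1% of all genes were transiently higher. Of 29 sterol and fatty acid genes, 25 were above Day 10 at Day 12, and 3 were transiently higher, among them Fasn (302, 413 and 349 CPM) and Acaca (101.4, 126 and 106 CPM), and the calls of Fasn and Acaca were lost with RIN as a covariate. Of 16 stress response genes, the amino acid response genes Asns (162, 61.7 and 79.8 CPM) and Trib3 (7.67, 2.06 and 3.84 CPM) were transiently lower and the chaperone gene Hspa5 (931, 1023 and 727 CPM) higher. All 3 of these calls were lost without Day 12 replicate 3, those of Asns and Trib3 also without Day 15 replicate 2, that of Trib3 also without Day 12 replicate 1 or Day 15 replicate 1, with RIN and in edgeR, and that of Hspa5 also without Day 10 replicate 2 or 3. Of 14 genes raised by growth factor withdrawal through FoxO factors, Klhl24 (83.7, 61.1 and 95.7 CPM) and Foxo3 (32.6, 23.4 and 40.1 CPM) were transiently lower and Irs2 (18.6, 22.7 and 11.2 CPM) higher, and the calls of Foxo3 and Irs2 were lost with RIN as a covariate. That of Irs2 was also lost without Day 10 replicate 1 or 2 or Day 12 replicate 2 or 3. Of 19 ion channel and synaptic genes, 0 passed both steps in limma and 0 in edgeR, 2 were transiently lower after quantile normalization, and 16 were higher at Day 15 than at Day 12 in limma.

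In the +Wnt libraries, whose levels are not compared in choosing these genes, the 150 transiently higher genes were mostly not high at Day 12. Of the 150, 4 were higher at Day 12 +Wnt than at Day 15 +Wnt and 80 were lower, while 67.9% of all genes differed, with 35.5% higher and 32.4% lower (limma). These are 2.67% and 53.3% of the 150. Of the 81 transiently lower genes, 8 were higher and 52 lower at Day 12 +Wnt, so that more of them had the direction of the +Fgf step than the opposite one. The Day 12 to Day 15 step differed between the paths for 47.9% of all genes, 20.9% with the difference above 0 and 27% with it below 0, and it was above 0 for 143 of the 150 and below 0 for 0. For the 81 it was below 0 for 40 and above 0 for 10. The choice of the genes by their +Fgf step favours both directions. Mmp9 was at 0.440, 0.209 and 0.397 CPM in Day 12 +Wnt and at 29.7, 25.4 and 20.3 CPM in Day 15 +Wnt (log2 difference of Day 12 from Day 15 -5.29 (SE 0.31), limma adjusted p = 3.34e-10). Tnc went from 0.629, 1.60 and 1.72 CPM to 54.2, 41.5 and 42.8 CPM (log2 difference -4.92 (SE 0.32), limma adjusted p = 1.23e-09). Cd44 was at 7.17 and then 86.2 CPM, beside a Day 12 +Fgf level of 17.4 CPM. All 15 annexin and S100 genes tested were lower at Day 12 +Wnt than at Day 15 +Wnt. The summed mesenchyme markers moved with these genes in +Wnt, from between 120 and 161 CPM at Day 12 to between 568 and 681 CPM at Day 15, as did the macrophage markers, from between 1.52 and 2.64 to between 20.7 and 24.1 CPM. Their part in the +Wnt values was not tested.

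Other peaks of the +Fgf path were low at both days in +Wnt. Trpc6 was at 1.05 and 1.36 CPM at Day 12 and Day 15 +Wnt (limma adjusted p = 0.302), Csn3 at 0.287 and 0.142 CPM (limma adjusted p = 0.153), and Tagln at 3.62 and 3.19 CPM (limma adjusted p = 0.349). The Day 10 means of Csn3 and Tagln were 6.37 and 21.2 CPM. Among the dips, Penk stayed at 12.4 and 11.3 CPM in +Wnt, and Igfbpl1 at 143 and 163 CPM, while A2m rose from 4.98 to 52.9 CPM (log2 difference of Day 12 from Day 15 -3.34 (SE 0.11), limma adjusted p = 1.03e-12). All 23 mitosis genes were higher at Day 12 than at Day 15 in +Wnt.

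**Figure D5:**
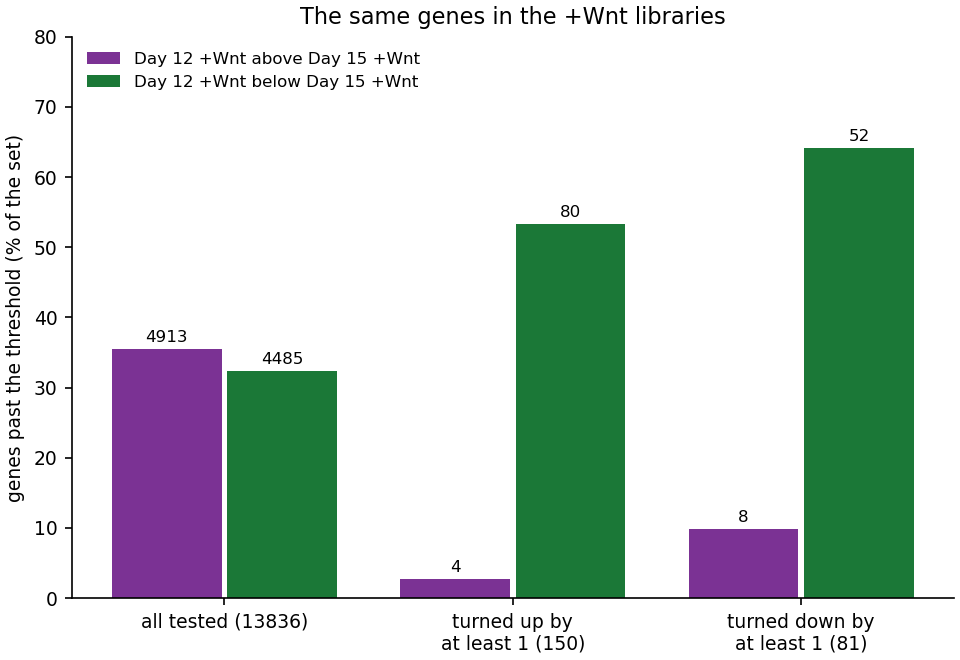
Bars give the percentage of genes higher (purple) or lower (green) at Day 12 +Wnt than at Day 15 +Wnt with limma's adjusted p under 0.05, for all 13836 genes tested and for the 150 genes transiently higher and 81 transiently lower by at least 1 on the +Fgf path, with the number of genes above each bar. The green bar is the taller for the transiently higher genes (80 against 4) and for the transiently lower genes (52 against 8).

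Some of the 150 transiently higher genes were next to one another in the order of tested genes, with no limit set on the distance. Of the 144 with a position in the annotation, 19 (13.2%) had another of them as the next tested gene along the chromosome, where 2.19% of all 12944 tested genes with a position had one of the 144 beside them. Among the pairs were Mmp3 and Mmp10 on chromosome 9, S100a4 and S100a6 and, separately, Adamtsl4 and Ecm1 on chromosome 3, and Odam and Csn3 on chromosome 5. Other pairs lay far apart, as Tnc ends at 64047015 and Pappa starts at 65124174 on chromosome 4. For Mmp3, Mmp10 and Odam, the Day 12 +Fgf values alone were enough to pass the filter on low values. Of the 77 genes transiently lower by at least 1 with a position, 2 (2.60%) were neighbours, Iqsec3 and A2m, where 1.19% of all tested genes had one of the 77 beside them. Members of 1 gene family often lie together, and read sharing between near copies was not tested.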

How the data were processed

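The deposited table holds, per the labels and file headers, TMM-normalized CPM (counts scaled to library size) for each gene and library, a signal that the authors made with edgeR 3.2.4. The submitters' processing notes name bcl2fastq 1.8.4, FastQC 0.10.1, TopHat2 2.0.8b and Cufflinks 2.1.1 with Cuffdiff, and build mm10. Whole reads could be recovered for all values, within 0.01 reads, and summed to between 12556998 and 16175450 per library, so that 1 read was worth 0.0620 to 0.0764 CPM. All 15 columns matched 1 sample each and 0 other columns of values were used.

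Values were log2-transformed after adding 0.3, for genes with at least 1 CPM in at least 3 libraries. Groups were compared with limma 3.58.1 in R 4.3.3 (5 group means, moderation with a trend, two-sided, Benjamini-Hochberg within each comparison). edgeR 4.0.16 on recovered reads was an alternative. Tables were handled in Python 3.11.15 with pandas 2.3.3 and NumPy 2.4.6, and plots were drawn with matplotlib 3.10.9. The fits were tested on simulated counts.

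Named genes are the 12 peaks and 12 dips with the largest turn among those past the threshold in both steps, with a mean of at least 10 CPM in Day 12 +Fgf (peaks) or in both Day 10 and Day 15 +Fgf (dips), and members of 30 gene lists, of which 507 of 508 distinct genes were found. Some of these genes are not reported here. Members and lists were chosen with earlier results of these data known. Replicates are labelled as biological, and all come from 1 stem cell line. RNA integrity numbers, used as a covariate in 1 alternative, came from the study's sample table. Positions are from GENCODE on GRCm38, and promoters from RefSeq.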

Additional observations from a re-analysis of the deposited data

Results flagged for a closer look

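The step from Day 12 to Day 15 +Fgf was set against the same step in +Wnt in 1 model, and the difference between the paths was past the threshold for 6628 genes of 13836 (47.9%; limma, Benjamini-Hochberg adjusted). The genes named from the +Fgf path carry this difference partly by choice, since the Day 12 and Day 15 +Fgf libraries chose them. On the log2 scale, Day 12 minus Day 15 in +Fgf exceeded that in +Wnt by 10.02 for Mmp9, 7.80 for Tnc, 7.10 for Runx1 and 7.002 for Spp1, which were all higher at Day 15 than at Day 12 in +Wnt. It exceeded it by 4.32 for Trpc6, 4.32 for Tgfb1, 3.67 for Csn3, 3.64 for Angpt2, 3.34 for Ecm1, 2.76 for Tagln and 2.66 for Cdkn2b.

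Among the dips the difference was -3.09 for Igfbpl1, -2.67 for Penk, -1.93 for Peli2, -1.69 for Nmnat2, -1.31 for Slc8a3, -1.30 for Parvb, -1.02 for Kcnn1 and -0.72 for Rtn4rl1. For A2m and Pla2g5 it was above 0, at 1.36 and 0.57, since the rise from Day 12 to Day 15 was larger in +Wnt. Over all turned genes, 315 of the 982 transiently higher and 117 of the 659 transiently lower genes passed the test in the opposite direction in +Wnt with steps that differed between the paths. The 315 are 32.08% of the 982, and 32.42% of all genes were lower at Day 12 +Wnt than at Day 15 +Wnt. The 117 are 17.75% of the 659, and 35.51% of all genes were higher at Day 12 +Wnt. Neither share is thus above that of all genes.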

How the results depend on the processing

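RIN as a covariate changed the counts most. With it, 1918 genes differed from the mean of Day 10 and Day 15 +Fgf (1016 higher, 902 lower), in place of 5349. Transiently higher genes numbered 483, transiently lower genes 282, and genes whose Day 12 to Day 15 step differed between the paths 3836. All Day 12 +Fgf libraries had the higher RIN, so RNA integrity and the Day 12 state cannot be fully told apart and the cause was not tested. The other alternatives kept each of these counts within 1.5 times. Leaving out 1 library of the +Fgf path gave 4299 to 5359 genes different from the mean, 793 to 952 transiently higher and 516 to 642 transiently lower. In edgeR on recovered reads the numbers were 5267, 996 and 641. With a replicate block they were 5313, 971 and 639. No pairing by replicate number was seen, which does not show that the samples were unmatched. Of 30 pairs with the same number, 7 correlated above 0.1 (median -0.00819). The 60 pairs with different numbers had a median of -0.0107, and 6 of 15 libraries correlated best with their own number. Median-of-ratios scaling gave 2533 genes higher and 2847 lower. No named gene reversed in any alternative run. A filter of 10 CPM kept 75 of the 150 genes transiently higher by at least 1 and 47 of the 81 transiently lower, since fewer genes were tested.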

Other observations

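Besides Crx, 3 photoreceptor genes that were lowest at Day 12 were chosen after their values were seen, for that pattern, and are no tally of photoreceptor genes. Others did not share it: the log2 step from Day 10 to Day 12 was 0.31 for Gngt2, 0.09 for Prdm1 and -0.08 for Rd3, which were neither peaks nor dips. Pdc, the phosducin gene, had 1.499, 0.869 and 0.841 CPM at Day 10, 0, 0.0637 and 0 CPM in Day 12 +Fgf and 13.6, 11.7 and 14.6 CPM in Day 15 +Fgf. Gnb3, a G protein subunit of cones, had 2.32, 1.74 and 1.15 CPM, then 0.254, 0.446 and 0 CPM, then 6.86, 5.49 and 5.37 CPM. Cdhr1, a cadherin of photoreceptor outer segments, had 1.16, 0.869 and 2.60 CPM, then 0.444, 0.382 and 0.383 CPM, then 44.3, 40.04 and 35.0 CPM. In all 3 genes the Day 12 libraries were below the 6 others, and Day 15 was above Day 10.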
